A study of Mus musculus with 4 samples.

Results

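Transcripts that mark dividing cells were followed through the cell types of the mouse small intestine. The set held 48 genes, 20 that peak in S phase and 28 that peak in G2 and mitosis (G2M), of 32286 features counted in each library. They were taken by gene symbol from a list of replication and mitosis genes, and every symbol matched 1 feature. The list was chosen with earlier results of these data known, and some members are among the study's markers of crypt and plasma cells. Their UMI counts (unique molecular identifiers, which count captured transcripts) were compared in crypt, B, T, plasma, myeloid and endothelial cells of each mouse.

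Single cells came from the distal jejunum of 4 adult male mice, 18.5 h after ischemia and reperfusion (I/R), in which the superior mesenteric artery is clamped and released. The 2 Control mice carried the genotype Foxc1fl/fl;Foxc2fl/fl without Cre, and the 2 EC-Foxc-DKO mice were Cdh5-CreERT2;Foxc1fl/fl;Foxc2fl/fl. All 4 therefore carried floxed alleles of both transcription factor genes and had the same surgery. The study's methods give tamoxifen by oral gavage to adult male mice and name no group that was left out. The Cdh5 promoter drives Cre in endothelial cells, and recombination in other cells was not tested.

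Each mouse gave 1 library, which is 1 replicate. Of 22679 barcodes, 5615 (24.8%) had at most 10% mitochondrial UMIs and were kept, 348 to 2742 per mouse, with a median of 4254.5 to 19871 UMIs per cell. Among the kept cells, 2 barcodes occurred in more than 1 library. Endothelial cells of Control 1, Control 2, EC-Foxc-DKO 1 and EC-Foxc-DKO 2 held 2, 9, 1 and 0 UMIs of Foxc1, 0 of Foxc2 in every library, and 0, 0, 3 and 2 of Cre, so that the deletion could barely be checked at this depth.

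A dividing cell first licenses its replication origins by loading the MCM helicase, then copies its DNA in S phase with the sliding clamp PCNA and a supply of deoxynucleotides. In G2 and mitosis, cyclin B with CDK1 drives chromosome condensation and spindle assembly, and the anaphase-promoting complex ends the process. In the small intestine the stem and progenitor cells at the crypt base divide throughout life and replace the villus epithelium, whose enterocytes and other mature cells have left the cycle. Germinal center B cells, activated T cells and plasmablasts are the classic dividing cells among lymphocytes.

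The 2 phases are known to be read from different promoter elements, E2F sites for S genes and the CHR (cell cycle genes homology region), often with a CCAAT box, for G2M genes. RefSeq promoters (GRCm38.p6, 250 bases before to 50 bases after the start) were found for 44 of the 48 members. An E2F element (TTTCCCGC, TTTGGCGC, TTTCGCGC or TTTGCCGC on either strand) was in 7 of 18 S promoters (38.9%), in 1 of 26 G2M promoters (3.85%, Cdk1) and in 2.32% of the 27025 mouse promoters. A CHR (TTTGAA or TTCGAA on either strand, letters that no E2F element above contains) was in 4 of 18 S promoters (22.2%), in 20 of 26 G2M promoters (76.9%) and in 19.4% of all. The CCAAT box was in 66.7% of S, 76.9% of G2M and 37.9% of all promoters, and CHR and CCAAT occurred together in 16.7%, 69.2% and 7.70%. These shares depend on the bases after the start. In the 250 bases upstream alone, the G2M share of the CHR was 30.8%, against 17.4% of all promoters. The G2M share of CHR and CCAAT together was 30.8% there, against 6.21% of all. The S share of the E2F element was 22.2% (4 of 18), against 1.91% of all.

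The windows below, 30 bases from GRCm38.p6 on the strand of the gene, show these elements in some members named in the results that follow. The element nearest the start is in capitals. Members without the element have no window. Pcna, Tyms and Rrm2, for instance, had no E2F element, and Birc5, Ccnb1 and Pttg1 had no CHR. Further members named below also lacked the element of their phase, such as Rrm1, Slbp and Cenpe. The S members Mcm5 (chr8:75109349-75109378, plus strand), Pclaf (chr9:65890307-65890336, plus strand) and Cdt1 (chr8:122568035-122568064, plus strand) show E2F elements, of which that of Mcm5 is a pair that overlaps on opposite strands and that of Pclaf begins 5 bases before the start. The G2M members Mki67 (chr7:135716460-135716489, minus strand), Top2a (chr11:99024195-99024224, minus strand), Ube2c (chr2:164769888-164769917, plus strand), Cdk1 (chr10:69352910-69352939, minus strand) and Aspm (chr1:139454767-139454796, plus strand) show the CHR, which in Top2a and Ube2c lies on the opposite strand and is therefore written as its complement. The elements of Cdt1 and Aspm lie 32 and 6 bases after the RefSeq start, in the transcribed sequence, and the others begin upstream of it. By the gene starts of the GENCODE annotation, the elements of Pclaf, Ube2c and Cdk1 also lie within the gene. A match describes these letters and is not a measured binding site.
Mcm5: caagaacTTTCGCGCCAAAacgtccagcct
Pclaf: gcttggagcgcGCGGGAAAgagacccattt
Cdt1: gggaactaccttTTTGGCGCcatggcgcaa
Mki67: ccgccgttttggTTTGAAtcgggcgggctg
Top2a: gctagataaaggTTCAAAtgaaactaggga
Ube2c: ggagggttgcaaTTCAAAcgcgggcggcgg
Cdk1: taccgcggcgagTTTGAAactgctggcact
Aspm: ggaggcgcgataTTTGAAccgagcaaaagc

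Cells were grouped without the members and other listed cell cycle genes, although some genes of the cycle are outside these lists and were not left out. Crypt-like cells were a cluster led by Olfm4, Kcne3 and Cldn2, with 12 of the 16 crypt markers detected, and they numbered 15, 15, 41 and 142 cells in Control 1, Control 2, EC-Foxc-DKO 1 and EC-Foxc-DKO 2. All values per mouse are given in this order. B cells numbered 129, 23, 1277 and 52, T cells 70, 77, 321 and 86, plasma cells 5, 8, 16 and 16, myeloid cells 143, 44, 205 and 114, and endothelial cells 36, 39, 90 and 24. Plasma cells were below the minimum of 10 cells in both Control mice and were described without a test. The libraries of the EC-Foxc-DKO mice thus held most of the crypt cells, and EC-Foxc-DKO 1 held most of the B cells.

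For each mouse and class, the UMIs of a gene were divided by the UMIs of all genes and scaled to a total of 1e+06 (CPM). Since these 3′ libraries count transcripts at 1 end, CPM carries no factor for gene length. Comparisons between cell classes are descriptions without a test.

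Crypt cells carried most of the mitotic transcripts counted in the kept cells. They made up 3.79% of the kept cells but held 67.5% of all G2M UMIs and 43.6% of all S UMIs. Such a share of UMIs grows with depth, and crypt cells had a median of 45290 UMIs. The median was 26145.5 in enterocytes, 4615.5 in T and 3296 in B cells. EC-Foxc-DKO 2 alone gave 14812 of the 28038 G2M UMIs of crypt cells. The G2M members summed to 3896, 2737, 2628 and 2462 CPM (2931 ± 653, SD, n = 4), and the S members to 951, 879, 1116 and 1217 CPM (1041 ± 154). The G2M sum was above the S sum in every mouse, and the highest G2M sum was that of Control 1. In crypt cells all 48 members had UMIs in all 4 mice, which none of the other 5 classes showed. Detection also grows with the UMIs counted in a class and was not compared at equal depth.

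**Figure D1:**
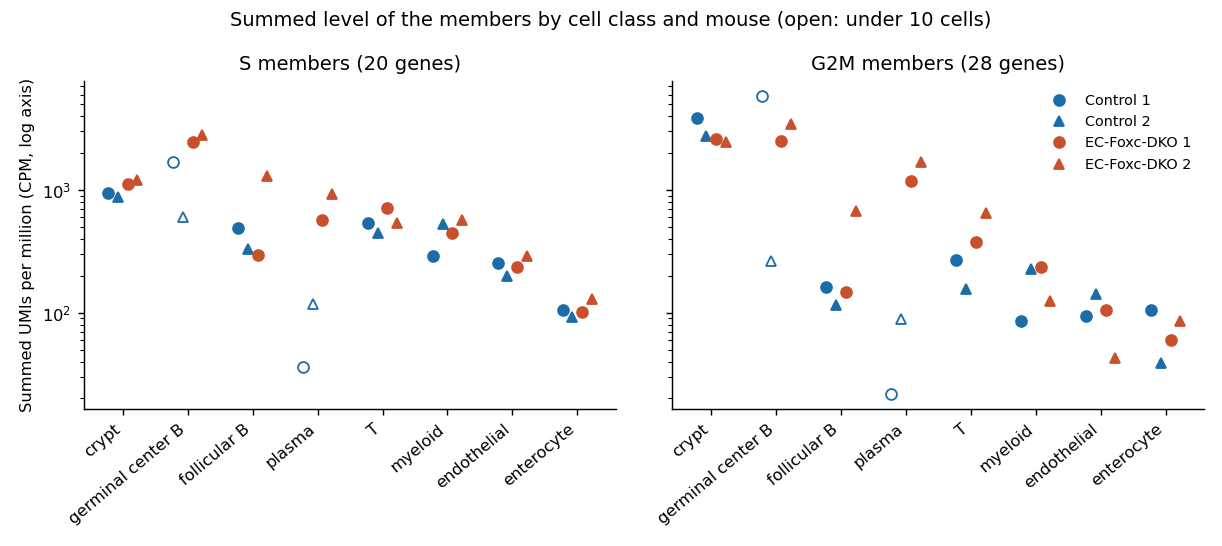
Summed level of the 20 S members (left) and the 28 G2M members (right) in CPM on a log axis, by cell class, with 1 point per mouse and open points where a mouse had under 10 cells of the class. Crypt cells lie between 879 and 1217 CPM for S and between 2462 and 3896 CPM for G2M, while endothelial cells and enterocytes lie at or below 289 CPM in both panels.

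Among the S members of crypt cells, the clamp and its partner came first. Pclaf, the PCNA-associated factor, had 281, 134, 250 and 287 CPM and alone gave 22.9% of the S sum. Pcna, the sliding clamp, had 69.3, 68.0, 113 and 127 CPM. Both EC-Foxc-DKO mice were above both Control mice for Pcna, whereas for Pclaf Control 2 was low and the other mice were alike.

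The enzymes that supply deoxynucleotides differed among themselves. Tyms, thymidylate synthase, had 124, 79.7, 96.7 and 70.2 CPM. Rrm1, the large subunit of ribonucleotide reductase, had 70.1, 58.3, 73.5 and 88.9 CPM. Rrm2, its small subunit, had 34.3, 1.94, 35.1 and 70.8 CPM. Rrm2 rested on 1 UMI in Control 2 and was highest in EC-Foxc-DKO 2, and Tyms was highest in Control 1.

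The 6 subunits of the MCM helicase had a narrow range of means, from 29.7 CPM (Mcm2) to 59.4 CPM (Mcm7). Mcm5 had 39.1, 31.1, 42.6 and 51.4 CPM, and Mcm6 had 17.9, 75.8, 45.2 and 30.6 CPM. Mcm5 was higher in both EC-Foxc-DKO mice, and Mcm6 spread most within the Control mice. The licensing factors were low, with Cdt1, which loads the helicase, at 15.5, 17.5, 28.0 and 36.9 CPM, and Cdc6, its partner, at 2.45, 3.89, 11.2 and 9.48 CPM. Both were below in the Control mice and above in the EC-Foxc-DKO mice, and Cdc6 was the lowest of all 48 members in crypt cells.

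Of the remaining S members, Slbp, which binds histone mRNA, averaged 76.3 CPM, Uhrf1, which recruits the maintenance DNA methyltransferase, 46.6 CPM, and Fen1, the flap endonuclease, 44.7 CPM. Gins2 and Cdc45, which join the MCM ring in the moving helicase, averaged 21.4 and 11.1 CPM, Ung, a uracil DNA glycosylase, 12.1 CPM, and Chaf1b, a histone chaperone subunit, 9.87 CPM. The S genes of crypt cells thus covered a range from 6.75 to 238 CPM.

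Among the G2M members of crypt cells, Ube2c and Birc5 had the highest means, followed by Mki67 and Cenpa. Ube2c, the ubiquitin-conjugating enzyme of the anaphase-promoting complex, had 604, 200, 317 and 328 CPM. Birc5 (survivin), a subunit of the passenger complex, had 447, 229, 279 and 325 CPM. For both genes Control 1 was the highest and Control 2 the lowest mouse, with the EC-Foxc-DKO mice between them. Cdca8 (borealin), another passenger subunit, averaged 174 CPM, and Cdc20, which activates the anaphase-promoting complex, averaged 160 CPM.

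Cdk1, the mitotic kinase, had 114, 27.2, 68.7 and 66.8 CPM, and Ccnb1, its cyclin, had 133, 73.9, 75.0 and 75.8 CPM. Both were highest in Control 1, and the other 3 mice were alike for Ccnb1. Mki67, the proliferation antigen that coats mitotic chromosomes, had 285, 225, 191 and 133 CPM. Top2a, which disentangles DNA, had 112, 70.0, 141 and 90.8 CPM. Mki67 was higher in both Control mice, and the groups overlapped for Top2a.

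The centromere and kinetochore genes ranged widely, from Cenpa, the centromeric histone, at a mean of 203 CPM through Cenpf (120 CPM) and Cenpe (85.6 CPM) to Nuf2 and Ndc80 (22.3 and 15.9 CPM). The kinases Plk1, Aurka and Aurkb averaged 61.3, 41.9 and 18.3 CPM, and the checkpoint genes Bub1b and Bub1 averaged 37.1 and 31.1 CPM. Aspm, which focuses the spindle poles, had 56.3, 46.7, 20.5 and 16.8 CPM. Pttg1 (securin), which blocks the release of sister chromatids until anaphase, had 35.9, 33.0, 74.7 and 88.6 CPM. These last genes went opposite ways between the groups, and neither overlapped.

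**Figure D2:**
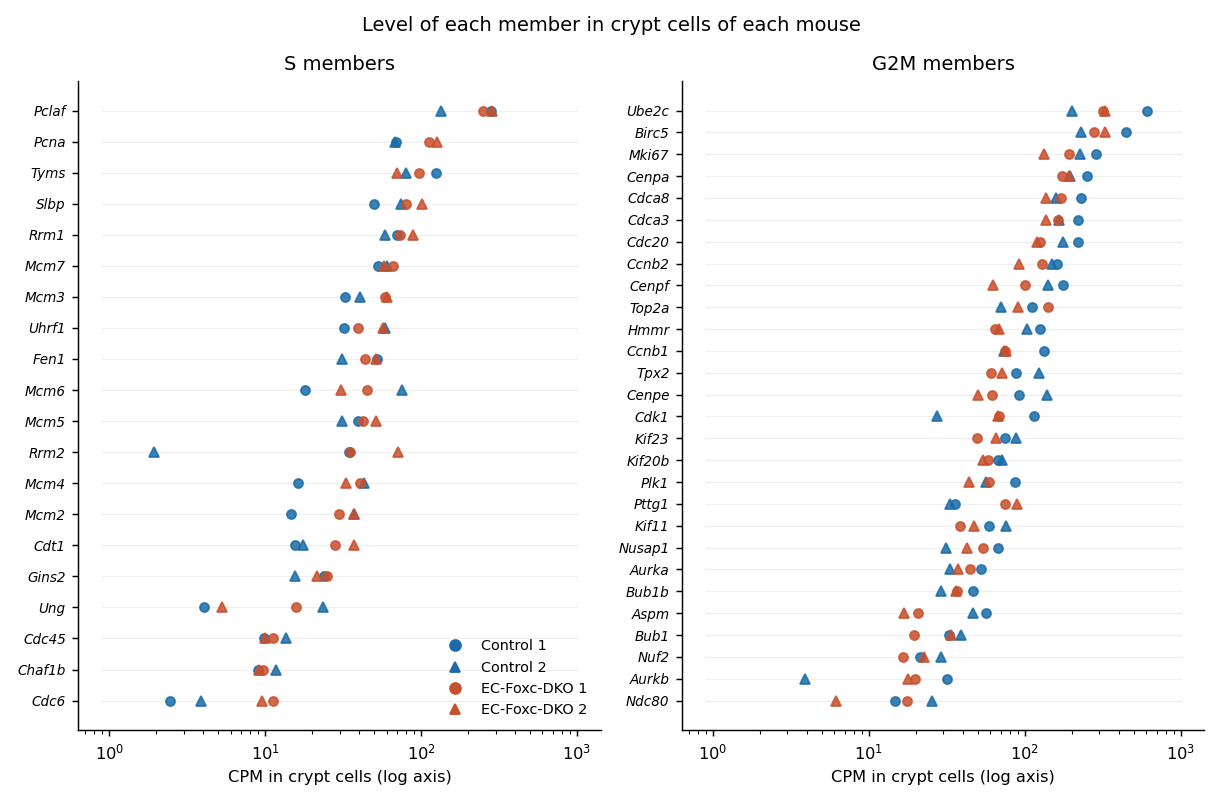
Level of each member in crypt cells, 1 row per gene ordered by mean, with CPM on a log axis and 1 point per mouse (circles and triangles for the mice of each genotype). Pclaf and Ube2c lead their panels with means of 238 and 362 CPM. Both Control points lie to the right of both EC-Foxc-DKO points in 13 of the 28 G2M rows, against 17.1% of all genes tested.

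Most crypt cells carried mitotic transcripts even at equal depth. When 1000 UMIs were drawn from every cell, 2 or more G2M UMIs were expected in 80.4, 56.3, 64.1 and 60.7% of crypt cells (65.4 ± 10.5%, SD, n = 4). The share with 2 or more S UMIs was 22.9, 17.2, 28.4 and 32.0% (25.1 ± 6.47%), which is lower than the G2M share in each mouse. Without drawing, 202 of 213 cells (94.8%, 95% Clopper-Pearson interval 90.9 to 97.4%) had 2 or more G2M UMIs and 208 (97.7%, 94.6 to 99.2%) had 2 or more S UMIs, at a median of 45290 UMIs per cell. The intervals cover counting error only. Enterocytes, as a class a mature cell type, had 0.545% for G2M and 0.587% for S at 1000 UMIs, and 27.9% and 62.2% without drawing at a median of 26145.5 UMIs. Crypt cells were far above enterocytes at equal depth.

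Within crypt cells the 2 programs mixed. More G2M than S UMIs were found in 15 of 15, 11 of 15, 30 of 41 and 106 of 142 cells, and more S than G2M UMIs in 0, 3, 8 and 34 cells. A G2M level of 4000 CPM or more was reached by 7 of 15 (46.7%, 95% exact interval 21.3 to 73.4%), 5 of 15 (33.3%, 11.8 to 61.6%), 7 of 41 (17.1%, 7.15 to 32.1%) and 14 of 142 cells (9.86%, 5.50 to 16.0%). An S level of 2000 CPM or more was reached by 1, 1, 6 and 25 cells. Cells with very high G2M levels were thus a larger share in both Control mice, each of which gave 15 crypt cells. The intervals of both Control mice overlap that of EC-Foxc-DKO 1, and they cover counting error within a mouse, not the spread between mice. The CPM cuts were not among the settings fixed in advance. The cells were not brought to equal depth, and ranged from 716 to 215735 UMIs, so shallow cells pass a cut on few UMIs. A G2M level under 1000 CPM was found in 6.67, 40.0, 22.0 and 19.0% of crypt cells, so Control 2 also had the largest share of low cells. An exact permutation test of 2 against 2 mice cannot give a p below 0.333, so no such share was tested.

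**Figure D3:**
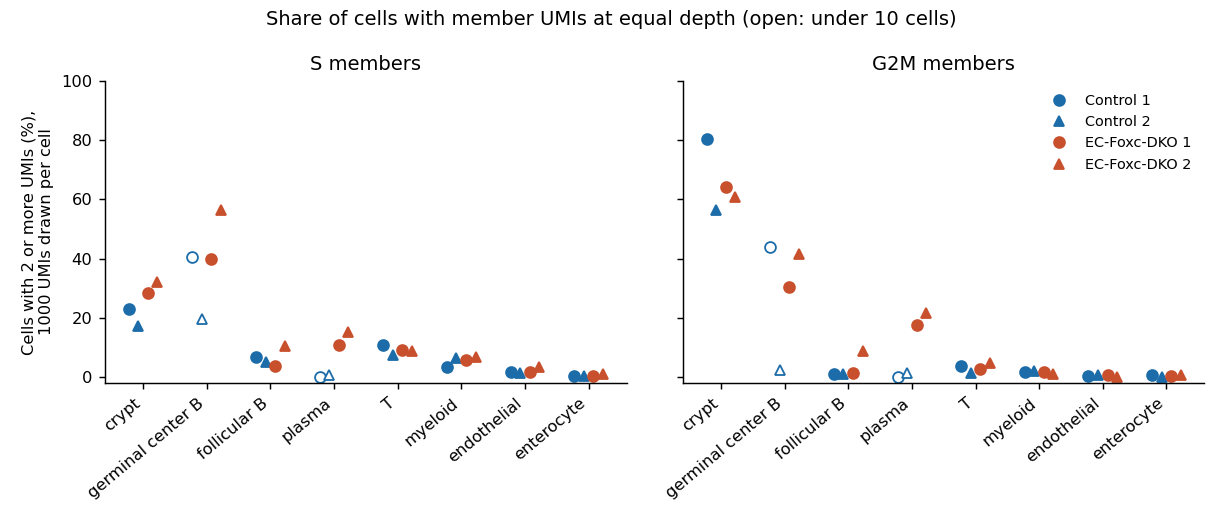
Expected percent of cells with 2 or more S UMIs (left) or G2M UMIs (right) when 1000 UMIs are drawn from each cell, by cell class, with 1 point per mouse and open points under 10 cells. Crypt cells lie between 56.3 and 80.4% for G2M and between 17.2 and 32.0% for S, and germinal center B cells of the EC-Foxc-DKO mice lie between 30.3 and 56.4% over both panels.

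By the balance of S to G2M transcripts, crypt cells stood apart from the other classes tested between genotypes, whose ranges overlapped. The ratio of summed S to summed G2M UMIs was 0.24, 0.32, 0.42 and 0.49 in crypt cells. T cells had 2.01, 2.85, 1.90 and 0.83, myeloid cells 3.38, 2.33, 1.91 and 4.59, and endothelial cells 2.69, 1.39, 2.27 and 6.80. The last value rests on 34 S and 5 G2M UMIs. The ratio was below 1 in crypt cells of every mouse and above 1 in myeloid and endothelial cells of every mouse, with enterocytes between 0.99 and 2.33. Outside crypt cells it rests in large part on few genes. Pcna and Slbp together gave 42.0% of the S sum in myeloid, 45.3% in endothelial cells and 71.4% in enterocytes. In crypt cells they gave 9.06 and 7.33%. Pttg1 and Cenpa gave 66.7% of the endothelial G2M sum. A ratio above 1 therefore does not place these cells in S phase. B cells had 0.80, 2.53, 1.23 and 0.96, and spread on both sides of 1. Among classes not tested, low ratios were not limited to crypt cells. Over the mice with at least 10 cells, goblet and Paneth-like cells ranged from 0.13 to 3.12, tuft cells from 0.31 to 2.19 and plasma cells from 0.48 to 0.56.

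**Figure D4:**
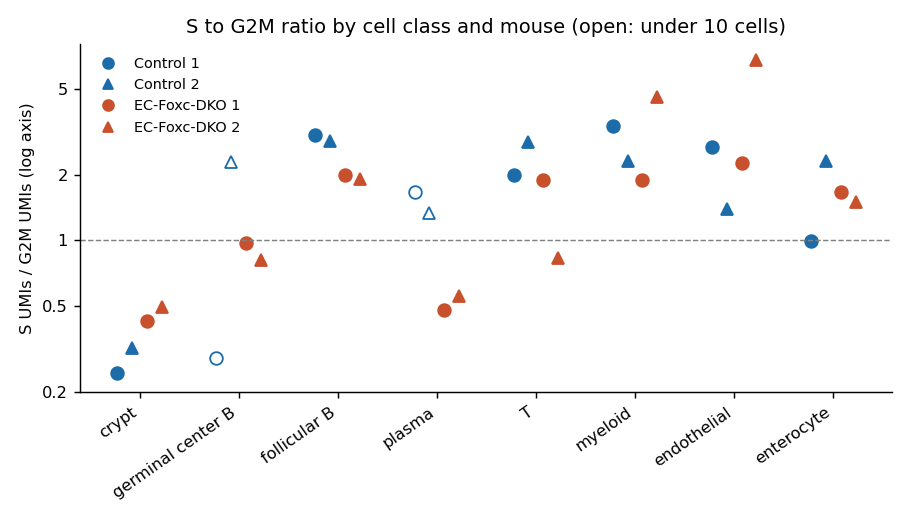
Ratio of summed S to summed G2M UMIs by cell class on a log axis, with 1 point per mouse, open points under 10 cells and a dashed line at 1. Crypt cells stay between 0.24 and 0.49, and myeloid cells between 1.91 and 4.59.

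By gene, crypt cells had the highest mean level of the 6 classes for 27 of 28 G2M members, the exception being Top2a, which was highest in plasma cells. For S members, crypt cells were highest for 10 of 20, B cells for 6 (Mcm2, Mcm3, Mcm5, Mcm6, Pcna and Cdt1), T cells for 3 (Mcm4, Slbp and Chaf1b) and plasma cells for 1 (Rrm2). The plasma means here include both Control mice, which had under 10 plasma cells each and lower levels than the EC-Foxc-DKO mice. Plasma cells were not ranked over the EC-Foxc-DKO mice alone. These places also depend on how the classes are drawn. In EC-Foxc-DKO 1 and 2, germinal center B cells were 88 of 1277 and 18 of 52 B cells. Over these mice they had higher means than crypt cells for 17 of 28 G2M members, such as Mki67 (357 against 162 CPM) and Top2a (389 against 116 CPM), and for 19 of 20 S members. Crypt cells were higher for Ube2c (322 against 229 CPM) and Birc5 (302 against 198 CPM). The top germinal center cell gave 22.7 and 20.6% of the G2M UMIs of its class in these mice. Pcna was spread over the classes, with means of 94.2 CPM in crypt, 130 in B, 120 in myeloid, 96.5 in T, 68.5 in endothelial and 46.6 in plasma cells, whose spreads between mice overlap. Ube2c had means of 362 CPM in crypt, 75.1 in B, 55.5 in plasma, 20.5 in T, 4.80 in myeloid and 3.20 in endothelial cells.

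B cells divided into a large follicular-like cluster and 120 germinal center B-like cells, named from Mef2b and Gcsam among others. The follicular B cells had 492, 330, 294 and 1291 CPM of S and 162, 116, 148 and 672 CPM of G2M transcripts. In EC-Foxc-DKO 2, 1 of 34 follicular B cells held 61.3% of the G2M UMIs. When the cell cycle genes were kept in clustering, the follicular means were 335 CPM for S and 156 CPM for G2M, in place of 602 and 274 CPM. Germinal center B cells, numbering 7, 7, 88 and 18, had 1678, 603, 2451 and 2831 CPM of S and 5845, 262, 2532 and 3467 CPM of G2M transcripts. In the EC-Foxc-DKO mice, which gave 10 or more of these cells, the S sums were above those of crypt cells in every mouse and the G2M sums lay within the crypt range. At 1000 UMIs per cell, 2 or more S UMIs were expected in 41.4% and 2 or more G2M UMIs in 31.2% of germinal center B cells over all mice, although the G2M sum was the larger in both EC-Foxc-DKO mice (ratio 0.97 and 0.82) and in Control 1 the G2M share was 44.1% and the S share 40.7%. Of the 2 germinal center clusters, 1 was also led by Spag5, Fignl1 and Cenps, which were not among the listed cell cycle genes.

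In all B cells together, Pclaf had 94.6, 40.5, 93.4 and 518 CPM, Mki67 had 70.9, 20.3, 47.9 and 275 CPM, and Top2a had 60.2, 0, 50.0 and 306 CPM. EC-Foxc-DKO 2 was the highest mouse for each. Few cells carried these UMIs. In Control 1, 1 of 129 B cells held 66.9% of the G2M UMIs, and in EC-Foxc-DKO 1, 9 of 1277 cells were enough to hold most of them. Germinal center markers summed to 282, 1327, 336 and 1543 CPM in the B cells, and EC-Foxc-DKO 2 was highest in them as well. Their part in the level of the members was not tested.

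In T cells the S genes were present in every mouse and the mitotic genes in few cells. The S sum was 543, 447, 715 and 537 CPM, led by Slbp at a mean of 132 CPM and Pcna at 98.8, 70.8, 100 and 116 CPM. The G2M sum was 270, 157, 376 and 646 CPM. The highest single cell gave 37.6, 7.04, 22.5 and 58.7% of the G2M UMIs of its mouse, so that in EC-Foxc-DKO 2 1 of 86 cells held most of them. Top2a had 23.2, 26.6, 54.2 and 72.2 CPM, Mki67 had 34.9, 0, 45.5 and 40.8 CPM, and Pclaf had 2.90, 0, 46.1 and 40.8 CPM on 1, 0, 80 and 13 UMIs. The Pclaf UMIs came from 1, 0, 6 and 2 cells. At 1000 UMIs, 2 or more G2M UMIs were expected in 2.99% of T cells, against 1.86% of neutrophil-like cells and 0.545% of enterocytes. The neutrophil-like value is uncertain, since only 3 of 56 such cells had 2 or more G2M UMIs without drawing.

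Plasma cells held many members in the EC-Foxc-DKO mice, on few cells. In the EC-Foxc-DKO mice they had 569 and 936 CPM of S and 1188 and 1686 CPM of G2M transcripts, while the 5 and 8 Control cells had 36.2 and 118 CPM of S and 21.7 and 88.8 CPM of G2M transcripts. Mki67 had 2, 5, 84 and 45 UMIs and Top2a had 0, 6, 73 and 55 UMIs. Most G2M UMIs of either EC-Foxc-DKO mouse lay in 2 of its 16 cells, and the top cell gave 37.7 and 42.2%. The ratio of S to G2M was 0.48 and 0.56 in these mice, and rests on a handful of cells. When the cell cycle genes were kept in clustering, 13 and 14 plasma cells remained in these mice, with means of 324 CPM of S and 129 CPM of G2M, in place of 753 and 1437 CPM, and ratios of 2.77 and 2.45. The plasma levels thus depended on the clustering genes, and no genotype was compared in this class.

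Myeloid cells had 290, 532, 449 and 570 CPM of S and 85.6, 229, 235 and 124 CPM of G2M transcripts. Pcna with 102, 124, 106 and 151 CPM and Slbp with a mean of 73.0 CPM together gave 42.0% of the S sum. Mki67 had 4.41, 32.3, 17.6 and 21.6 CPM. In Control 2, 1 of 44 cells held 56.1% of the S and 58.8% of the G2M UMIs. At 1000 UMIs, 2 or more G2M UMIs were expected in 1.63% of myeloid cells, and in 1.66% of the macrophage and monocyte-like and 1.86% of the 56 neutrophil-like cells among them. The cell with the most G2M members had 24 of the 28. The S share was 5.40% in all myeloid and 1.63% in neutrophil-like cells. Only 4 neutrophil-like cells had 2 or more S UMIs without drawing, so their share is uncertain.

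Endothelial cells, the target of Cre in the EC-Foxc-DKO mice, had the lowest level of both programs among the 6 classes in the means over mice. Their S sum was 252, 199, 238 and 289 CPM (244 ± 37.3, SD, n = 4) and their G2M sum 93.8, 143, 105 and 42.5 CPM (96.0 ± 41.4). Pcna had 58.6, 66.2, 55.7 and 93.5 CPM, and Tyms had 4, 6, 7 and 0 UMIs. Of the 28 G2M members 12 had no UMI in any mouse, and Pttg1 and Cenpa together gave 66.7% of the G2M sum. Mki67 was found in 0 of 189 cells, which allows a share of cells with a UMI of up to 1.59%, and Ccnb1 likewise had no UMI. At 1000 UMIs, 0.540% of endothelial cells were expected to have 2 or more G2M UMIs, a share not above that of enterocytes, and 1.92% to have 2 or more S UMIs, against 1.63% of neutrophil-like cells. By the share of cells with 2 or more G2M UMIs, endothelial cells could not be told from enterocytes at this depth. The mean G2M sum was nonetheless 96.0 CPM in endothelial cells, against 72.5 CPM in enterocytes.

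Enterocytes had low levels of most members. Their S sum was 104, 91.5, 101 and 129 CPM, of which Pcna gave 46.6% and Slbp 24.8%, and their G2M sum was 105, 39.2, 60.2 and 85.3 CPM. The class held single cells with up to 28 of the 28 G2M members, and its mean G2M sum was 41.8 in place of 72.5 CPM when the cell cycle genes were kept in clustering. Mki67, Top2a and Ube2c averaged 2.87, 1.88 and 6.39 CPM there, and in Control 1 3 of 827 cells held most of the G2M UMIs.

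The genotypes were then compared, which asks whether deleting the Foxc genes in the endothelium goes with a change in the division genes of the crypt and of the other cells after I/R. The UMIs of each class were summed per mouse and tested with edgeR, with p-values adjusted over all genes. In crypt cells none of the 48 members was called between genotypes, and 0% of 9076 genes were. At an unadjusted p under 0.05 there were 10 members with edgeR and 7 with DESeq2, which also called none. The share of all genes at that unadjusted threshold was not counted, so unadjusted counts here and below have no baseline. Simulated counts showed that this design recovers 10% of changes of 1 and 55% of changes of 2 on the log2 scale in crypt cells, so changes of the size seen could be missed.

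S and G2M members of crypt cells leaned in opposite directions. Of the 20 S members 15 had a log2 fold change above 0 (EC-Foxc-DKO over Control) and of the 28 G2M members 26 had one below 0. The medians were 0.35 for S and -0.37 for G2M, beside -0.0015 for all genes tested. Both EC-Foxc-DKO mice were above both Control mice for 8 of 20 S members, against 13.7% of all genes, and below them for 13 of 28 G2M members, against 17.1% of all genes. No S member was below in both, and Pttg1 was the 1 G2M member above in both. The members move together within a mouse, so these counts describe 4 mice and not 48 observations. The summed S level was 252 CPM higher in the EC-Foxc-DKO mice and the summed G2M level -771 CPM against Control, which became -192 CPM without Control 1, and 18 in place of 26 G2M members were then below 0. The ratio of S to G2M was 0.177 higher in the EC-Foxc-DKO mice, and 0.138 to 0.215 higher when each mouse was left out in turn.

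The S members with the lowest p in crypt cells were Pcna, with a log2 fold change of 0.80 (SE 0.25), and Cdt1 with 1.01 (SE 0.34). Among G2M members they were Aspm, with -1.49 (SE 0.30), and Pttg1 with 1.24 (SE 0.27). All 4 had an adjusted p of 0.999 in edgeR and none overlapped between the groups. Mki67 had -0.65 (SE 0.29), Cdk1 -0.13 (SE 0.48), Ube2c -0.32 (SE 0.43), Birc5 -0.17 (SE 0.32), Ccnb1 -0.48 (SE 0.30) and Top2a 0.34 (SE 0.34). Without Control 1, Cdk1 had 1.29, Ube2c 0.67, Birc5 0.38 and Ccnb1 0.011, so the sign of these 4 genes rested on that mouse. Among the S members named, Mcm5 had 0.40 (SE 0.28), Tyms -0.30 (SE 0.31), Rrm2 1.31 (SE 0.66) and Pclaf 0.36 (SE 0.33). Rrm2 had 4.73 without Control 1 and 0.68 without Control 2.

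**Figure D5:**
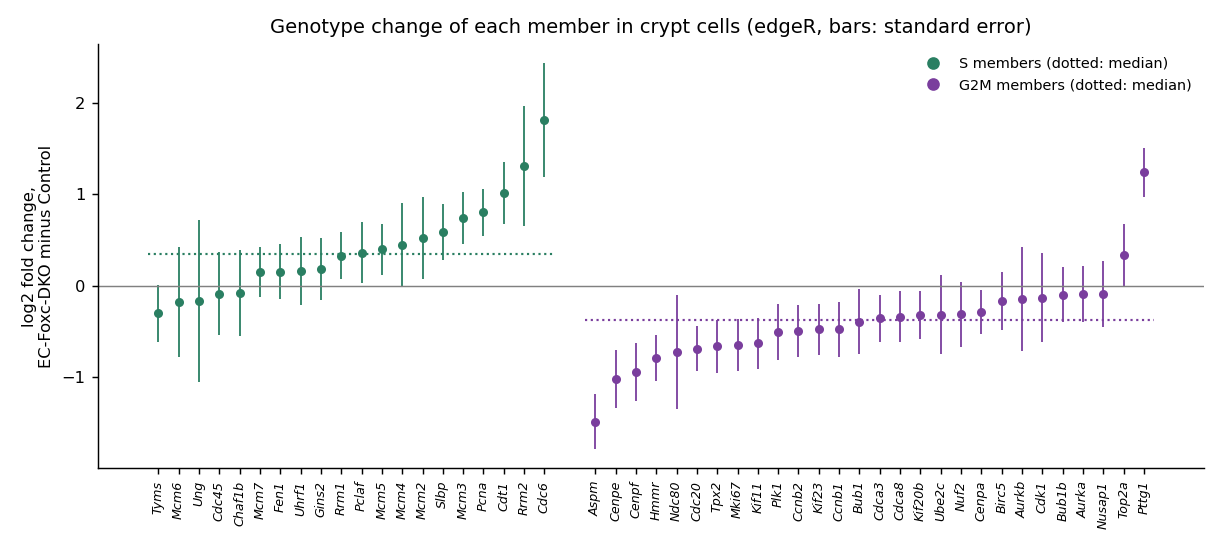
Log2 fold change (EC-Foxc-DKO over Control) of each member in crypt cells from edgeR, S members on the left and G2M members on the right, with bars of 1 standard error and dotted lines at the medians of 0.35 and -0.37. Aspm is the lowest at -1.49 and Pttg1 the highest G2M member at 1.24, and no member passed the adjusted threshold.

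Markers of other cells moved in the crypt cells too. The enterocyte list summed to 11291, 4059, 14537 and 35966 CPM, with all 19 markers present and the highest level in EC-Foxc-DKO 2, and the goblet and Paneth list to 54.6, 381, 1018 and 277 CPM. The crypt list itself was 5386, 6984, 6320 and 6540 CPM. The part of the enterocyte transcripts in the change of the members was not tested. The crypt cells also differed in depth, with a median of 79156, 29975, 61428 and 41853.5 UMIs per cell, Control 1 being the deepest, and the part of depth was not tested.

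In the other classes no member was called either. In B cells 20 members passed the filter on low counts, 3 had an unadjusted p under 0.05 with edgeR and 2 with DESeq2, and 0% of 4423 genes were called. Pclaf had 1.92 (SE 0.70), Rrm1 2.06 (SE 0.86), Cdca8 1.84 (SE 0.81) and Top2a 1.91 (SE 0.87), each with an adjusted p of 1. Of the tested members 9 of 10 S and 9 of 10 G2M genes were above 0, and both EC-Foxc-DKO mice were above both Control mice for 2 S and 2 G2M members, against 12.9% of all genes, and below for 0 members, against 18.4%. A fit that leaves out a mouse rests on a lone mouse of that genotype, which is then assumed to vary like the others. Over these fits the log2 fold change ranged from 0.44 to 2.82 for Pclaf and from 0.96 to 9.92 for Rrm1. The range was 1.02 to 9.58 for Cdca8 and 0.40 to 11.1 for Top2a. Within follicular B cells none of 5 tested members was called and none had an unadjusted p under 0.05.

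In T cells 13 members passed the filter, 3 had an unadjusted p under 0.05 with edgeR and 2 with DESeq2, and 0.0388% of 5151 genes were called. Pclaf came nearest, with a log2 fold change of 5.01 (SE 0.79) and an adjusted p of 0.0515 in edgeR, on the UMIs of the few cells described above. It was called without Control 1, without Control 2, without EC-Foxc-DKO 2 and with the replicate block, at 3.99 to 8.22. It was not called by DESeq2 or at a mitochondrial limit of 20%, with 4.18 and an adjusted p of 0.965 in edgeR, and it did not pass the filter on low counts without EC-Foxc-DKO 1, at the clustering resolution of 1, with the cell cycle genes kept in clustering or with the highest doublet scores removed. In the last 3 settings EC-Foxc-DKO 2 had 1 Pclaf UMI in T cells in place of 13. Top2a had 1.32 (SE 0.37, adjusted p = 0.797), Mki67 1.57 (SE 0.70) and Mcm5 0.75 (SE 0.42). Both EC-Foxc-DKO mice were above both Control mice for 3 S and 2 G2M members, against 13.2% of all genes, and below for 0 members, against 19.8%. B cell markers in these T cells were 95.8, 157, 1684 and 333 CPM, and their part in the change was not tested.

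In myeloid cells 22 members were tested, 2 had an unadjusted p under 0.05 with edgeR and 0 with DESeq2, and 0% of 7729 genes were called. Tyms had 1.63 (SE 0.60), Cdt1 0.85 (SE 0.52), Pttg1 -1.27 (SE 0.53) and Top2a 0.97 (SE 0.88). Both EC-Foxc-DKO mice were above both Control mice for 5 S members and 1 G2M member, against 17.2% of all genes, and below for 1 G2M member, against 13.9%. In endothelial cells only Pcna (0.09, SE 0.43), Slbp (0.58, SE 0.53) and Pttg1 (-1.06, SE 0.59) passed the filter. None had an unadjusted p under 0.05 with edgeR or DESeq2, and 0% of 4131 genes were called, with Slbp above and Pttg1 below in both EC-Foxc-DKO mice against 17.3% and 15.2% of all genes.

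The test of the difference between crypt and B cells in genotype change called none of 47 members, against 0.101% of 8873 genes, and 14 members had an unadjusted p under 0.05. Mki67 had the lowest p, with a change -1.87 lower on the log2 scale in crypt than in B cells (SE 0.56, adjusted p = 0.372), followed by Cdca8 (-2.19, SE 0.67) and, among S members, Tyms (-3.78, SE 1.18). With a mouse left out, this test rests on a lone mouse of that genotype, so its calls were not read.

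Other genes of the cycle, from lists that hold no member, were read the same way in crypt cells, and edgeR called none of them at the adjusted threshold. Of 43 other replication genes 26 were above 0 and 17 below (median 0.12), and 2 had an unadjusted p under 0.05, Rpa2, a subunit of the single-strand binding protein, with 0.94 (SE 0.32) and Prim2, a primase subunit, with -1.11 (SE 0.46). Of 44 other mitosis genes 33 were below 0 (median -0.33), and 20 were below in both EC-Foxc-DKO mice, against 17.1% of all genes. With edgeR 6 had an unadjusted p under 0.05, led by Mybl2, a transcription factor of the G2M program, with 2.03 (SE 0.59) and Anln, which scaffolds the cleavage furrow, with -0.89 (SE 0.31). Of 22 G1 cyclin, CDK, E2F and Rb genes 13 were above 0 (median 0.13), with E2f8 at 0.91 (SE 0.39) and E2f1 at 1.51 (SE 0.69). Of 16 CDK inhibitor and exit genes 10 were below 0 (median -0.22), with the inhibitor Cdkn1b at 48.9, 56.4, 27.2 and 19.9 CPM and -1.15 (SE 0.32) and the phosphatase gene Cdkn3 at -0.81 (SE 0.30). Other mitosis genes thus leaned the same way as the G2M members, whose lean weakened without Control 1. The other lists were not read with a mouse left out.

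Across the 48 sums of a mouse and a cell class, S and G2M levels went together, with a Pearson correlation of 0.755 on log2(CPM + 1). These points share mice, libraries and depth, and the value is a description. The genes outside the list most like the summed G2M members were Ccna2 (0.898), Pbk (0.875), Knl1 (0.872), Nek2 (0.861) and Lrr1 (0.859). For the summed S members they included Asf1b (0.872), Rplp2 (0.856), a ribosomal protein gene, Snrpg (0.854) and Hmgb2 (0.841). Of the members, Pttg1 was least like the G2M sum (0.531, median of members 0.850) and Ung least like the S sum (0.626, median 0.792).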

How the data were processed

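The authors deposited whole-number UMI counts per gene and barcode, not normalized, in 1 matrix per mouse. Per the file headers and the study's methods they were made from 10x Genomics 3′ libraries with Cell Ranger on mm10 with Cre added. Cell Ranger is given as version 4.0.0 in the headers, while the methods state another. From these counts, cells with over 10% mitochondrial UMIs were removed, and genes with a mean count of at least 0.001 were scaled to 10000 UMIs in each cell, put on a log scale and grouped into clusters with scanpy 1.11.5 (15 principal components, 15 neighbors, Leiden resolution 0.5, seed 0). Unlike in the study, the listed cell cycle genes were left out of clustering, because some members are among its markers of crypt and plasma cells. Clusters were named from markers at 2 times the level of other cells in at least 10% of cells, with at least 3 detected, so that a difference from the study may come from the names. Doublets were kept, since the methods state no removal.

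UMIs were summed per mouse and class and tested with edgeR 4.0.16 (quasi-likelihood, TMM, filterByExpr, Benjamini-Hochberg over all genes, threshold 0.05) in classes with at least 10 cells in every mouse, with DESeq2 1.42.0 as an alternative. The test was checked on simulated data with 200 changed genes. The study instead tests cells as replicates. The p-values measure the spread between 2 mice per genotype. Values in every mouse are given for Mcm5, Pcna, Tyms, Rrm2, Pclaf, Mki67, Top2a, Birc5, Ube2c, Ccnb1 and Cdk1, and where shown for other members, and for each class tested the 2 S and 2 G2M members with the lowest p are named. Levels of other members named beside these were chosen after their values were seen. Of other lists the 2 genes with the lowest p in crypt cells are named, and the 5 genes most like each sum were sought among genes with at least 10 CPM in a sum, of which 1 is not reported here. The members and lists were chosen with earlier results of these data known. The joined table of all libraries was used only to check the genes, and no column of it was left unused for want of a sample (0 columns). Deviating crypt sums of the same genotype differed beyond sampling noise (chi-square per degree of freedom 6.94 and 14.6), so no library was counted as a copy.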

Additional observations from a re-analysis of the deposited data

Results flagged for a closer look

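The summed G2M level differed between genotypes in opposite directions in crypt and T cells. In T cells both EC-Foxc-DKO mice were above both Control mice, by 297 CPM in the means, and in crypt cells both were below, with a difference of -771 CPM. The ratio of S to G2M went the opposite way, by -1.06 in T cells and 0.177 in crypt cells. The difference between the classes was not tested, and in T cells of EC-Foxc-DKO 2 a single cell held 58.7% of the G2M UMIs.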

How the results depend on the processing

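Of 526 values under other settings, 360 were fold changes of named members, of which 336 kept their direction and their side of the threshold, 14 passed it and 10 reversed, and of the 166 other results 144 stayed within the spread or 1.5 times the count. The number of members called was 0 in each class and became 2 in crypt cells (Aspm and Rrm2), 1 in B cells (Pclaf) and 2 in T cells (Pclaf and Rrm2) without the filter on low counts. Among all genes, that setting called 83 of 15429 in crypt, 14 of 15008 in B and 66 of 14521 in T cells. The main test called 0, 0 and 2 genes in these classes. Leaving out each mouse gave 0 to 1 in crypt, 0 to 7 in B, 0 to 2 in T, 0 to 1 in myeloid cells and 0 to 4 for the difference between crypt and B cells. The crypt call was Rrm2 without EC-Foxc-DKO 1, the myeloid call Pclaf without Control 2, and Mki67 joined Pclaf in T cells without Control 1. Leaving out each mouse turned the sign of the log2 fold change of these genes in crypt cells, over the ranges -0.58 to 0.045 for Tyms, -0.52 to 0.38 for Birc5, -0.86 to 0.67 for Ube2c, -0.77 to 0.011 for Ccnb1 and -0.71 to 1.29 for Cdk1, each positive without Control 1, -0.022 to 0.98 for Pclaf, negative without Control 2, and -0.044 to 0.71 for Top2a, negative without EC-Foxc-DKO 1. Top2a in myeloid cells ranged from -0.20 without Control 1 to 2.55, Pcna in endothelial cells from -0.17 without EC-Foxc-DKO 2 to 0.50, and Cdk1 was 0.16 in crypt cells with the replicate block. The cause was not tested.

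The replicate numbers are shared by the genotypes but nothing in the labels ties mice with the same number. The correlation of their deviations was -0.332 in crypt, 0.063 in B, -0.070 in T, -0.124 in myeloid and -0.034 in endothelial cells. With the replicate block, 1 member (Pclaf) was called in T cells, where 23 of 5151 genes were called, and 0 in the other classes. A crossed pairing, chosen after seeing the data, called 0 in crypt and 0 in myeloid cells.

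The share of crypt cells with 2 or more G2M UMIs was 79.6% at 2000 UMIs per cell, 95.3% without drawing, 79.8% for 1 and 50.1% for 3 UMIs or more, and 54.7% at a mitochondrial limit of 20%. For S it was 49.0, 96.3, 55.5 and 10.7%, with no such move at the limit of 20%. In the upstream bases alone, the CHR share of G2M promoters was 30.8% and the E2F share of S promoters 22.2%. The clustering with the cell cycle genes kept, the resolution of 1 and the removal of the highest doublet scores called no member in any class. The genotype test of plasma cells and its alternatives were not run, because the smallest mouse had 5 cells, and at the limit of 20% no cluster passed as germinal center B.

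With 2 mice per genotype, 15 crypt cells in each Control mouse and few UMIs of most members outside crypt and B cells, small changes cannot be seen. Counts of signs ranged from 13 to 17 of the S members above 0 and from 18 to 27 of the G2M members below 0 when each mouse was left out.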

Other observations

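Secretory and sensory cells of the epithelium also held mitotic transcripts, in few cells. Goblet and Paneth-like cells, numbering 32, 4, 48 and 43, had G2M sums of 1252, 861, 22.6 and 1364 CPM, and in Control 1 1 of 32 cells held 72.5% of the G2M UMIs. In tuft cells of EC-Foxc-DKO 1, 1 of 28 cells held 92.4% of them, with up to 27 of the 28 members detected in a cell.

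Barcodes removed for over 10% mitochondrial UMIs also carried members, with S levels of 111, 207, 129 and 309 CPM and G2M levels of 49.7, 141, 75.0 and 192 CPM of their other UMIs. The groups overlapped for both.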
